A study of Mus musculus with 15 samples.

Results

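Lung fibroblasts of Atm+/+ mice that had been irradiated were compared, as levels, with Atm-/- lung fibroblasts that had been carried to passage 8 without irradiation. The comparison was chosen by sample labels and rests on 6 of the 15 RNA-seq libraries of the series, 3 irradiated and 3 Atm-/- passage 8. The irradiated cells were primary C57BL/6 Atm+/+ lung fibroblasts labelled passage 2, given 10 Gy of X-rays and harvested 10 days later, which the submitters describe as stress-induced premature senescence. The cells they were set against were untreated primary C57BL/6 Atm-/- lung fibroblasts at passage 8. The other 9 libraries, 3 each of untreated Atm+/+ passage 2, Atm-/- passage 2 and Atm+/+ passage 8 cells, entered the fit and are used where a change is traced to its starting point. All cultures were kept at 3% oxygen, and 3 strains were established per genotype, so replicates of a group also differ by strain. The irradiated and the Atm-/- passage 8 groups differ in genotype, in irradiation and in passage at the same time, and these cannot be told apart in the level difference. The labels give neither the Atm allele nor the age of the mice, and do not say which strain each irradiated culture came from.

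ATM is a protein kinase that is activated by DNA double-strand breaks, phosphorylates p53 and checkpoint kinases, and halts the cell cycle while breaks are repaired. A dose of X-rays that cells survive without dividing again leads to senescence, a lasting arrest held by the CDK inhibitors p21 (Cdkn1a) and p16 (Cdkn2a) and accompanied by secretion of cytokines, growth factors and proteases. Cells without ATM repair breaks slowly, and unrepaired DNA that reaches the cytosol can switch on type I interferon genes. Serial passage is a different route into arrest, in which p16 rises with time in culture.

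Of 18167 genes tested, 1899 (10.5%) were higher and 2578 (14.2%) were lower in irradiated than in Atm-/- passage 8 cells at an adjusted p under 0.05 in edgeR's quasi-likelihood test with Benjamini-Hochberg adjustment over all genes tested. Of the genes tested, 1336 (7.35%) were called and at least 2-fold higher, and 1342 (7.39%) were called and at least 2-fold lower. In 5248 genes (28.9%) all 3 irradiated libraries lay above all 3 Atm-/- passage 8 libraries, and in 3928 (21.6%) all 3 lay below. The median log2 fold change over all genes was 0.09. For 6107 genes (33.6%) the 95% interval of the log2 fold change lay between -1 and 1, so a change of more than 2-fold is outside the interval for these. The number of calls fell to 2503, 2575 and 2639 without irradiated replicate 1, 2 or 3 in turn, against 4477 with all libraries. Levels below are in CPM, TMM-normalised counts scaled to the library total, given for replicates 1, 2 and 3 in that order, and ± after a log2 fold change is its standard error (SE).

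The Atm-/- passage 8 library of replicate 3 stood apart. Library totals were 34.1 to 39.2 M counts in irradiated cells and 34.0, 31.0 and 13.6 M in Atm-/- passage 8 cells. At equal depth 21705 to 21987 genes were detected in irradiated libraries, against 20675, 20613 and 15037 in Atm-/- passage 8 libraries. Correlations of log2 CPM ran from 0.994 to 0.997 among irradiated libraries, from 0.924 to 0.988 among Atm-/- passage 8 libraries, and from 0.879 to 0.963 between the groups. In the same replicate 3 the X-inactivation transcript Xist was at 162 CPM and the Y-linked Ddx3y, Kdm5d, Eif2s3y and Uty were at 0, while all 3 irradiated libraries and the other two Atm-/- passage 8 libraries held Y-linked reads and at most 0.0774 CPM of Xist. Atm-/- passage 2 replicate 3 likewise had 140 CPM of Xist and at most 0.0273 CPM of each of these Y-linked genes, so both Atm-/- libraries numbered 3 have this pattern. Without this library 2053 genes (11%) were higher and 2273 (12.2%) lower of 18632 tested, and 1621 higher (8.92%) and 1755 lower genes (9.66%) were called in the same direction with and without it. Some of the counts and calls that change without it are given below with both values. A second library with few genes, Atm+/+ passage 2 replicate 3 with 17217, lies outside the 2 groups but enters the estimate of the spread. It is also part of the Atm+/+ passage 2 mean, the starting point of the changes with irradiation and of the passage 2 genotype difference. For irradiated against Atm+/+ passage 2 cells, 4998 genes were called with it and 3531 without it. With both outlying libraries removed, 3829 genes were higher and 3995 lower in irradiated than in Atm-/- passage 8 cells, 42.3% of the genes tested.

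How the values are scaled shifts the whole comparison. On the deposited TPM, which divide counts by gene length, limma on log2(TPM + 1) called 4821 genes higher (27.9%) and 974 lower (5.63%), so that 83.2% of its calls were higher, against 42.4% of the calls on counts. The median over all genes on that scale was 0.45. List medians on log2(TPM + 1) are therefore read against 0.45, and a positive list median under 0.45 still lies below that of all genes.

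**Figure D1:**
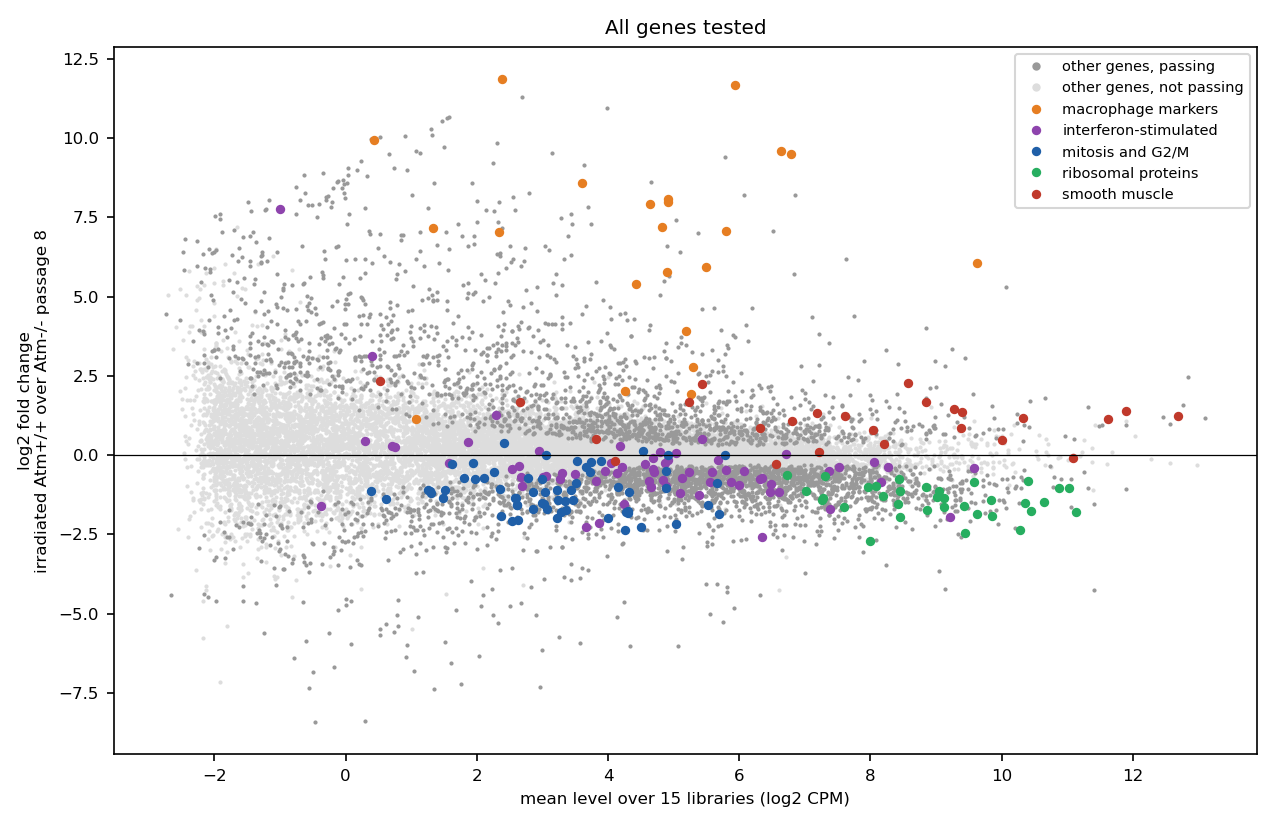
Log2 fold change of irradiated Atm+/+ over Atm-/- passage 8 cells (vertical axis) against mean level over 15 libraries in log2 CPM (horizontal axis) for the 18167 genes tested; each point is 1 gene. Most macrophage markers lie far above 0, smooth muscle genes mostly above 0, and mitotic and ribosomal protein genes mostly below 0.

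Atm itself did not separate the groups. It was at 1.65, 2.01 and 1.40 CPM in irradiated Atm+/+ cells and at 0.873, 1.09 and 2.37 CPM in Atm-/- passage 8 cells, with a log2 fold change of 0.27 ± 0.53 (SE, adjusted p = 0.738 in edgeR, n = 3 each). The ranges overlapped, and without Atm-/- replicate 3 the fold change was 0.80 (adjusted p = 0.280 in edgeR). A gene count does not show whether a disrupted transcript is still made, and the labels do not give the part of the gene that was disrupted, so these counts do not check the genotype labels. Within 20 Mb of Atm on chromosome 9, 105 of 353 genes (29.7%) were called, against 24.5% of the other genes.

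Both groups were dominated by fibroblast transcripts, but they differed in markers of other cell types. The 23 fibroblast markers summed to between 13500 and 15100 CPM in irradiated cells and between 7990 and 9600 CPM in Atm-/- passage 8 cells, and 9 markers were higher and 3 lower. Pdgfra, the receptor that defines lung fibroblasts, was at 326, 389 and 342 CPM in irradiated cells and at 86.1, 173 and 113 CPM in Atm-/- passage 8 cells (log2 fold change 1.5 ± 0.22, adjusted p = 0.000465 in edgeR). The 3 lower markers were S100a4, by -4.4 ± 0.66, and Ly6a and Dpt, known from adventitial fibroblasts, by -2.19 ± 0.23 and -2.57 ± 0.35. Pi16, Col14a1 and Mfap5, on the same list, were not called lower, so the list shows no shift of a fibroblast subtype. In bulk RNA, fewer cells of a type and less RNA per cell cannot be told apart.

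Macrophage genes differed most among the marker lists. Of 22 macrophage markers, 21 were higher in irradiated cells and none lower, with a median log2 fold change of 7.12, and their summed level was 1600 to 2880 CPM in irradiated cells and 44.8 to 65.4 CPM in Atm-/- passage 8 cells. Adgre1, which encodes the macrophage surface protein F4/80, was at 15.0, 8.78 and 18.5 CPM in irradiated cells and had no read in any Atm-/- passage 8 library, at least 354-fold higher against a floor of 3 counts over the group. Ptprc, the pan-leukocyte antigen CD45, and Spi1, the myeloid transcription factor PU.1, were likewise at 0 in all 3 Atm-/- passage 8 libraries and at least 93.4-fold and 240-fold higher. C1qc, a chain of complement C1q made by macrophages, was at 109, 57.1 and 126 CPM in irradiated cells and held 2 reads in all in Atm-/- passage 8 cells, a ratio of 3670 with a 95% counting interval of 1020 to 30300. Lyz2, lysozyme, was at 1360, 940 and 1610 CPM in irradiated cells and at 16.9, 27.3 and 13.7 CPM in Atm-/- passage 8 cells, so the groups did not overlap. Among the 12 largest fold changes upward by the naming rule, C1qa, C1qb, C1qc, F13a1, Fcrls, Fcgr2b, Cd36, Bcl2a1b and Mmp9 are also known from macrophages or other myeloid cells. The same summed level was 2700 to 4390 CPM in Atm+/+ passage 2, 1240 to 1970 in Atm-/- passage 2 and 71.3 to 115 in Atm+/+ passage 8 cells, so all 3 groups labelled passage 2 stood above both groups at passage 8.

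Endothelial and pericyte genes followed the same direction and mesothelial genes the opposite one. Of 18 endothelial markers, 13 were higher in irradiated cells and none lower, and their sum was 165 to 433 CPM in irradiated cells and 34.9 to 102 CPM in Atm-/- passage 8 cells. Cdh5, the adhesion protein of endothelial junctions, was at 43.7, 71.5 and 24.9 CPM in irradiated cells and at 1.83, 3.24 and 0 CPM in Atm-/- passage 8 cells. Of 13 pericyte markers, 7 were higher and 1 was lower. Of 8 tested mesothelial markers, 6 were lower in irradiated cells, and the list summed to 44.4 to 51.7 CPM in irradiated cells and 143 to 297 CPM in Atm-/- passage 8 cells. Msln, mesothelin, was at 0.749, 0.330 and 0.587 CPM in irradiated cells and at 40.8, 6.68 and 18.9 CPM in Atm-/- passage 8 cells, while Wt1, a transcription factor of mesothelium, was at 1.21, 1.77 and 0.866 CPM in irradiated cells and at 0.0873, 0.867 and 0 CPM in Atm-/- passage 8 cells. Lymphocyte markers were near 0 in both groups, with sums of 2.54 to 3.69 CPM in irradiated cells and 0.614 to 1.28 CPM in Atm-/- passage 8 cells. Of the epithelial, melanocyte, skeletal muscle and chondrocyte or osteoblast markers tested, 0 of 11, 2 of 5, 0 of 2 and 2 of 7 were higher in irradiated cells and 3, 1, 1 and 0 were lower. The medians of the epithelial and skeletal muscle lists, -0.20 and -0.56 on counts, turned to 0.10 and 0.37 on log2(TPM + 1). Relative to all genes on that scale they were -0.35 and -0.08. Chondrocyte and osteoblast markers summed to 306 to 342 CPM in irradiated cells and 23.5 to 82.7 CPM in Atm-/- passage 8 cells. Melanocyte markers summed to 10.7 to 15.5 CPM in irradiated cells and 28.9 to 43.3 CPM in Atm-/- passage 8 cells, and epithelial markers to 30.6 to 34.1 CPM in irradiated cells and 43.8 to 112 CPM in Atm-/- passage 8 cells. The sum overlapped between the groups for skeletal muscle, at 316 to 505 CPM in irradiated cells and 174 to 475 CPM in Atm-/- passage 8 cells, and for no other marker list. The part of these cell types in the gene lists below was not tested.

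**Figure D2:**
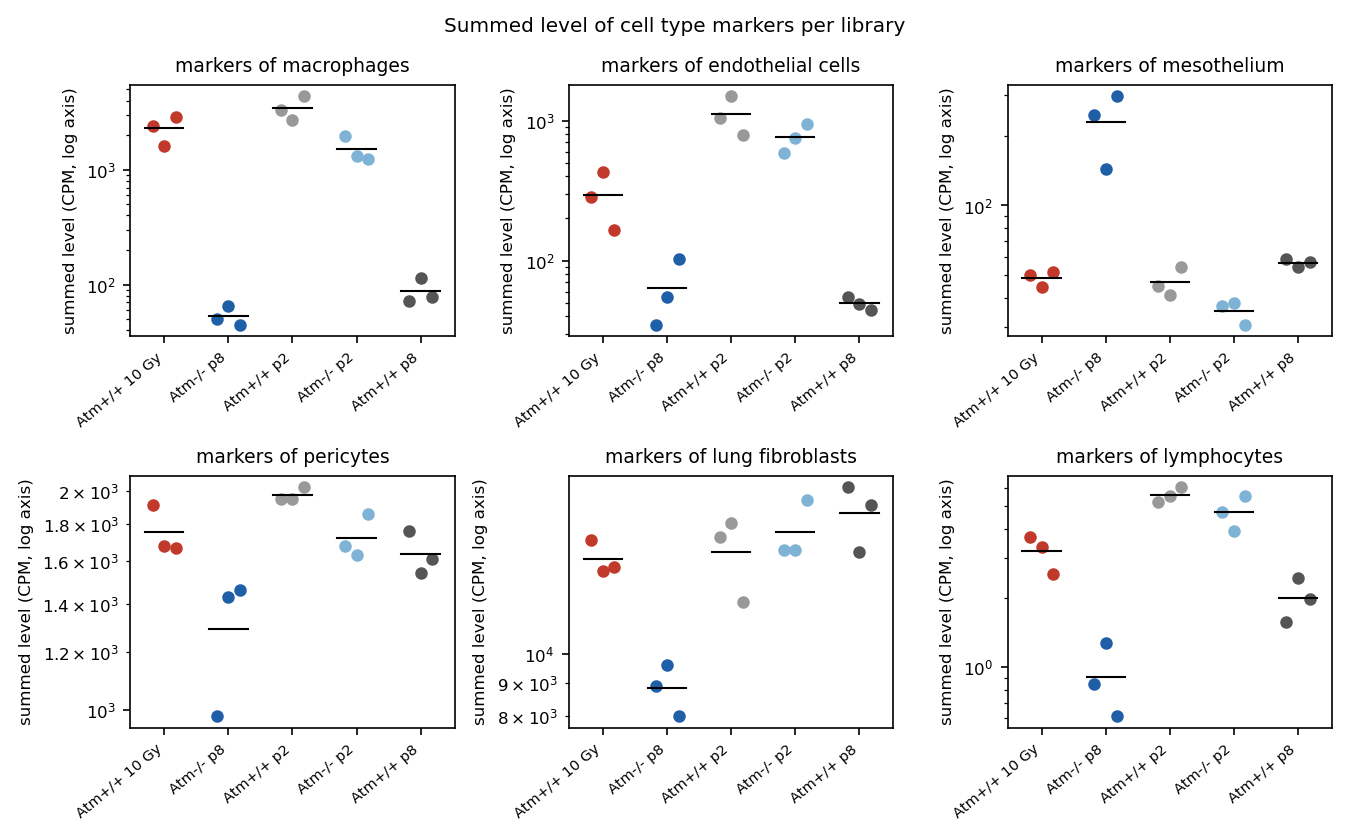
Summed level of 6 marker lists in CPM (vertical log axes) in the 5 groups (horizontal axes); each point is 1 library and each bar a group mean. Macrophage markers sum to 1600 to 2880 CPM in irradiated cells and 44.8 to 65.4 CPM in Atm-/- passage 8 cells, and mesothelial markers to 44.4 to 51.7 CPM in irradiated cells and 143 to 297 CPM in Atm-/- passage 8 cells.

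The CDK inhibitors divided between the groups. Cdkn1a, the p53 target p21, was at 1010, 924 and 899 CPM in irradiated cells and at 532, 526 and 436 CPM in Atm-/- passage 8 cells, a log2 fold change of 0.92 ± 0.13 (adjusted p = 0.000372 in edgeR). All 3 irradiated libraries were above all 3 Atm-/- passage 8 libraries. Cdkn2a, whose locus encodes p16 and the p53 activator p19Arf and whose counts do not separate them, was at 8.98, 6.87 and 16.2 CPM in irradiated cells and at 238, 137 and 194 CPM in Atm-/- passage 8 cells, a log2 fold change of -4.15 ± 0.45 (adjusted p = 5.84e-05 in edgeR). Its neighbour Cdkn2b, which encodes p15, was at 16.1, 15.5 and 20 CPM in irradiated cells and at 63.8, 37.2 and 51.4 CPM in Atm-/- passage 8 cells (-1.56 ± 0.20, adjusted p = 0.000178 in edgeR). So p21 was higher in irradiated cells, and both INK4 genes were higher in Atm-/- passage 8 cells. Hmga2, a chromatin protein of proliferating and fetal cells, went with the INK4 genes, at 23.9, 23.1 and 27.1 CPM in irradiated cells and 214, 112 and 161 CPM in Atm-/- passage 8 cells. Of the 27 CDK, cyclin and senescence genes, 4 were higher and 10 lower. Their median of -0.21 on counts turned to 0.49 on log2(TPM + 1), or 0.04 relative to all genes.

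Each inhibitor was followed from its passage 2 level. Cdkn1a averaged 253 ± 14.6 CPM in untreated Atm+/+ and 416 ± 49.4 CPM in Atm-/- cells at passage 2 (SD, n = 3 each). It rose by 1.90 ± 0.13 with irradiation (adjusted p = 2.93e-06 in edgeR) and by 0.26 ± 0.13 with passage in Atm-/- cells, which did not pass (adjusted p = 0.210). Cdkn2a rose by 3.78 ± 0.45 with passage in Atm-/- cells (adjusted p = 8.90e-05 in edgeR) and had a log2 fold change of -0.76 ± 0.41 with irradiation (adjusted p = 0.180). The difference between the change with irradiation and the change with Atm-/- passage was 1.64 ± 0.19 for Cdkn1a (adjusted p = 0.000228) and -4.53 ± 0.60 for Cdkn2a (adjusted p = 0.000641), both in edgeR. Over all genes tested, that difference passed for 1566 higher (8.62%) and 2353 lower genes (13%). It rests on the same libraries as the level difference.

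Of 40 p53 targets, 6 (15.0%) were higher and 2 (5.00%) lower in irradiated cells, beside 10.5% and 14.2% of all genes, and the median was 0.34. These counts turn on the scale and the libraries, with 21 higher and 1 lower and a median of 0.86 on log2(TPM + 1), which is 0.41 above that of all genes, and with 14 higher and 3 lower in the fit of 13 libraries without Atm-/- passage 8 replicate 3 and Atm+/+ passage 2 replicate 3. Ccng1, a cyclin induced by p53, was at 270, 285 and 281 CPM in irradiated cells and at 310, 196 and 191 CPM in Atm-/- passage 8 cells, and the ranges overlapped (0.26 ± 0.21, adjusted p = 0.390 in edgeR). Ddit4, a stress-induced inhibitor of mTORC1, was at 156, 150 and 142 CPM in irradiated cells and at 33.4, 73.3 and 23.2 CPM in Atm-/- passage 8 cells (1.78 ± 0.37, adjusted p = 0.00428). The apoptosis effector Bax was lower, at 164, 164 and 156 CPM in irradiated cells and 306, 245 and 362 CPM in Atm-/- passage 8 cells (-0.92 ± 0.19, adjusted p = 0.00459). Against their own passage 2 cells, 23 of the 40 targets rose with irradiation, beside 11% of all genes, and 6 with Atm-/- passage, beside 4.76% of all genes.

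**Figure D3:**
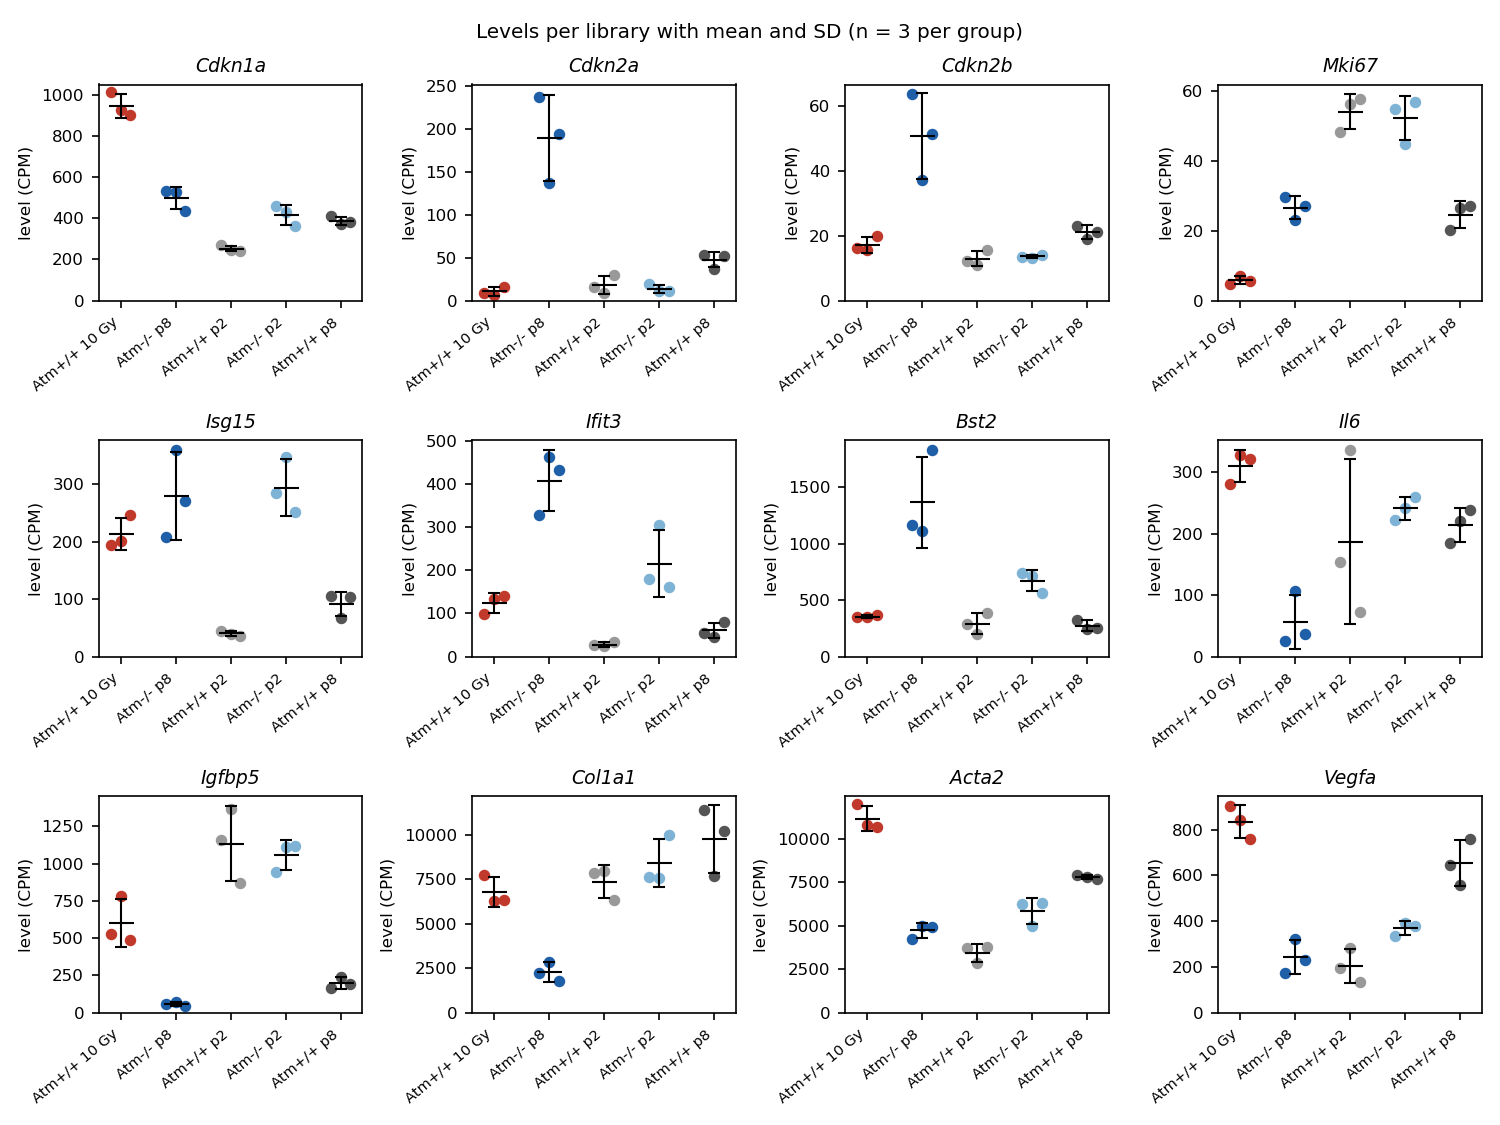
Level in CPM (vertical axes) of 12 genes in the 5 groups (horizontal axes); points are libraries, and bars the mean with SD (n = 3). Irradiated cells are higher than Atm-/- passage 8 cells for Cdkn1a, Il6, Igfbp5, Col1a1, Acta2 and Vegfa, lower for Cdkn2a, Cdkn2b, Mki67, Ifit3 and Bst2, and overlap with them for Isg15.

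Genes of cell division were lower in irradiated than in Atm-/- passage 8 cells. Of 62 mitosis and G2/M genes, none was higher and 30 (48.4%) were lower, with a median log2 fold change of -1.16, and without Atm-/- replicate 3 40 were lower with a median of -1.60. On log2(TPM + 1) their median was -0.35, which is 0.80 under that of all genes, and 10 were lower. Mki67, the proliferation antigen, was at 4.78, 7.06 and 5.67 CPM in irradiated cells and at 29.6, 23.1 and 26.9 CPM in Atm-/- passage 8 cells (-2.18 ± 0.18, adjusted p = 1.01e-05 in edgeR). Cdca3, a trigger of mitotic entry, was at 4.57, 5.64 and 5.17 CPM in irradiated cells and at 18.3, 15.5 and 18.5 CPM in Atm-/- passage 8 cells. Neither gene's groups overlapped. Top2a, the topoisomerase that untangles sister chromatids, had a log2 fold change of -1.86 ± 0.18, and Cenpa, the centromeric histone, one of -2.28 ± 0.22. Ccnb1, the cyclin that drives mitosis, was at 0.800, 1.44 and 1.31 CPM in irradiated cells and at 7.22, 6.20 and 1.49 CPM in Atm-/- passage 8 cells, so replicate 3 lay just above the irradiated range. The call of Ccnb1 was lost in limma on all 3 TPM settings and in the fit of only the 6 libraries (adjusted p up to 0.153).

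The promoters of the first pair of these genes are shown because they hold the letters of the cell cycle homology region. Through that element the DREAM and MuvB complexes repress mitotic genes. Both are RefSeq sequences of build GRCm38.p6, 250 bases before to 50 bases after the start, with the letters TTTGAA, searched on both strands, in capitals. The Mki67 window is chr7:135716330-135716629 on the minus strand and that of Cdca3 is chr6:124829926-124830225 on the plus strand.
Mki67: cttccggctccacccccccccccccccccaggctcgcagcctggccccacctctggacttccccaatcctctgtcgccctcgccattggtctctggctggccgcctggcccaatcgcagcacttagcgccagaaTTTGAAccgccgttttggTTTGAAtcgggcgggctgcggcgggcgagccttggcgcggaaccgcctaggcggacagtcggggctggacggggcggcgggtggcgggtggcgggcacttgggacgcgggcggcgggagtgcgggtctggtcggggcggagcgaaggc
Cdca3: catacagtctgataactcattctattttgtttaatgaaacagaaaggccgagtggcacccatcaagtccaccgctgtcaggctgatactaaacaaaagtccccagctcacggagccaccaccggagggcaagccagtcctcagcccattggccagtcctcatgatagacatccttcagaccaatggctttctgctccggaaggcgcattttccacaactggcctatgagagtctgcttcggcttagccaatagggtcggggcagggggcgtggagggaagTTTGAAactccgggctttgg
The Mki67 matches begin 116 and 98 bases before the start, and the Cdca3 match begins 30 bases after it. The window of Ccnb1, searched in the same way, held no match. Of 49 mitosis genes with a promoter in the table, 33 (67.3%) held these letters, beside 20.2% of the promoters of 27025 genes. They were in 19 of 26 (73.1%) of the genes that were lower and in 14 of 23 (60.9%) of those that did not pass. The match is a description of the letters only.

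DNA replication genes were in part lower in irradiated cells. Of 51 DNA replication genes, none was higher and 19 (37.3%) were lower, with a median of -0.61 on counts. The median on log2(TPM + 1) was -0.02, or -0.47 relative to all genes. It turned positive on log2(TPM + 0.1), where the median of all genes was 0.66. On log2(TPM + 1) 5 genes were lower, and without Atm-/- replicate 3 29 genes were lower on counts. Mcm2, a subunit of the replicative helicase, was at 9.11, 9.46 and 9.75 CPM in irradiated cells and 26.9, 18.1 and 21.0 CPM in Atm-/- passage 8 cells (-1.22 ± 0.18, adjusted p = 0.000504 in edgeR), a call that was lost in limma on all 3 TPM settings (adjusted p up to 0.131). Lig1, the ligase that seals Okazaki fragments, had a log2 fold change of -1.31 ± 0.17. Of 45 double-strand break signalling and repair genes, 1 was higher and 8 (17.8%) were lower, beside 14.2% of all genes. Their median of -0.20 turned to 0.19 on log2(TPM + 1), where 3 were higher and 1 lower, and was -0.26 relative to all genes there. The gene that was higher, Trp53bp1, named after its values were seen, encodes the break mediator 53BP1 and did not pass without Atm-/- replicate 3. The members named by the rule that were lower were H2afx, Rad54l, Exo1 and Rad51ap1, which act in recombination or mark breaks, and the calls of H2afx, Exo1 and Rad51ap1 were lost in limma on all 3 TPM settings. By contrast, Prkdc, the kinase of end joining, was at 9.22, 9.30 and 8.64 CPM in irradiated cells and 8.99, 9.28 and 6.93 CPM in Atm-/- passage 8 cells.

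Mitotic transcripts fell with irradiation and with Atm-/- passage, in 37 and 15 of the 62 genes, beside 16.5% of all genes lower with irradiation and 8.25% with Atm-/- passage in edgeR. Mki67 averaged 54.0 ± 5.04 CPM in untreated Atm+/+ and 52.1 ± 6.34 CPM in Atm-/- cells at passage 2 (SD, n = 3 each). It fell by 3.21 ± 0.19 with irradiation (adjusted p = 8.22e-07) and by 0.97 ± 0.18 with Atm-/- passage (adjusted p = 0.00209), and the difference of these changes was -2.23 ± 0.25 (adjusted p = 0.000228), all in edgeR. That difference was below 0 and passed for 21 of the 62 mitosis genes, beside 13% of all genes, and for none above 0.

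Interferon-stimulated genes were in part lower in irradiated than in Atm-/- passage 8 cells. Of 67 tested, 3 were higher and 25 (37.3%) lower in irradiated cells, with a median of -0.52 on counts, and on log2(TPM + 1) the median was 0.03, which is 0.42 under that of all genes, with 3 higher and 6 lower. The list summed to 3650 to 4140 CPM in irradiated cells and 5980 to 7690 CPM in Atm-/- passage 8 cells. Ifit3, which binds the IFIT1 antiviral sensor of foreign RNA, was at 98.8, 134 and 141 CPM in irradiated cells and at 329, 462 and 433 CPM in Atm-/- passage 8 cells (-1.71 ± 0.27, adjusted p = 0.000832 in edgeR). Bst2, tetherin, which holds budding virus at the membrane, was at 348, 346 and 369 CPM in irradiated cells and at 1160, 1110 and 1830 CPM in Atm-/- passage 8 cells (-1.95 ± 0.25, adjusted p = 0.000187). Oas1a, an antiviral oligoadenylate synthetase, was at 13.8, 14.4 and 13 CPM in irradiated cells and at 34.9, 41.9 and 44.2 CPM in Atm-/- passage 8 cells. None of these 3 genes overlapped between the groups, but Ifit3 and Oas1a have close copies in the genome with which they may share reads. Isg15, the ubiquitin-like modifier, did overlap, at 195, 201 and 246 CPM in irradiated cells and 208, 360 and 271 CPM in Atm-/- passage 8 cells (-0.39 ± 0.22, adjusted p = 0.218). The call of Ifit1 was lost without Atm-/- replicate 3, where its fold change was -0.93 (adjusted p = 0.0611), against -0.92 (adjusted p = 0.0399) with all libraries, both in edgeR. It was lost in 15 of 25 alternatives, each irradiated replicate left out and all 3 TPM settings among them, with log2 fold changes of -1.07 to -0.37 and adjusted p of 0.0233 to 0.435. Slfn5 and Epsti1, named here after their values were seen, were among the genes that were higher, and Epsti1 had no read in Atm-/- passage 8 cells.

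These promoters are shown because type I interferon acts on such genes through the interferon-stimulated response element. Each is a RefSeq window of build GRCm38.p6 from 250 bases before to 50 bases after the start, and capitals mark the core, which is GAAA, any pair of bases and GAAA again, searched on both strands with overlapping matches joined. The windows are chr4:156200769-156201068 on the minus strand for Isg15, chr19:34583279-34583578 on the plus strand for Ifit3, chr5:120907476-120907775 on the minus strand for Oas1a and chr8:71537423-71537722 on the minus strand for Bst2.
Isg15: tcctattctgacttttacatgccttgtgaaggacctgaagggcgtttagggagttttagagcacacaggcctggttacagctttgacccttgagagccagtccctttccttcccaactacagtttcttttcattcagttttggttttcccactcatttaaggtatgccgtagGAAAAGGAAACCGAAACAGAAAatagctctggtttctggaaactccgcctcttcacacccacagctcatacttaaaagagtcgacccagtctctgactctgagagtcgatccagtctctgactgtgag
Ifit3: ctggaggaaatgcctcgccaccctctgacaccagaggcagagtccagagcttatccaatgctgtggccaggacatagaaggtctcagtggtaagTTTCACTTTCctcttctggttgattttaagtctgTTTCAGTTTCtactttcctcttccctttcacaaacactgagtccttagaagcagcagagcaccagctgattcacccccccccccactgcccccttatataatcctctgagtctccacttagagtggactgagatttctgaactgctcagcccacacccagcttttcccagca
Oas1a: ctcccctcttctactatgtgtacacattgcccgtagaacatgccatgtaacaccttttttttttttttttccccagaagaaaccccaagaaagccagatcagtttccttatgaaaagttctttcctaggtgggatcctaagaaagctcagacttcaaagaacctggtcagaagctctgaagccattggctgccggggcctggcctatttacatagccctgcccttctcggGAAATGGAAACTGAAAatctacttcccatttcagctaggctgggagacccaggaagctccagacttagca
Bst2: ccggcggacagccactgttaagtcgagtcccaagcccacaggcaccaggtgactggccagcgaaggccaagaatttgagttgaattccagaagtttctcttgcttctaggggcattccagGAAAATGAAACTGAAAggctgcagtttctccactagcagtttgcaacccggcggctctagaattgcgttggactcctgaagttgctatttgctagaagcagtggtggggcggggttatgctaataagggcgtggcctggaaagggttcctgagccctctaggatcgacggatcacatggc
Isg15 has 3 overlapping matches, of which the first begins 78 bases before the start, and Oas1a has an overlapping pair that begins 20 bases before it. Bst2 has an overlapping pair from 130 bases before the start, and Ifit3 has 2 separate matches on the other strand, 156 and 122 bases before it. The core was in 29 of 51 (56.9%) tested interferon-stimulated genes with a promoter in the table and in 3.99% of the promoters of 27025 genes. It was in 9 of 18 (50%) of the genes that were lower and in 19 of 31 (61.3%) of those that did not pass.

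Interferon genes had moved from unequal starting levels. Gene by gene, the fitted level difference equals the change with irradiation, minus the change with Atm-/- passage, plus the difference of Atm+/+ over Atm-/- cells at passage 2. These terms share libraries with each other and with the level difference. The list medians were 1.04 for irradiation with 38 of 67 genes higher, 0.01 for Atm-/- passage with 4 higher and 3 lower, and -1.56 for Atm+/+ over Atm-/- at passage 2 with 38 lower. Over all genes, 11% were higher with irradiation, 4.76% higher and 8.25% lower with Atm-/- passage, and 0.628% lower in Atm+/+ than in Atm-/- cells at passage 2. Isg15 averaged 40.3 ± 4.91 CPM in untreated Atm+/+ and 295 ± 49.3 CPM in Atm-/- cells at passage 2 (SD, n = 3 each). It rose by 2.41 ± 0.23 with irradiation (adjusted p = 2.65e-05) and had a log2 fold change of -0.07 ± 0.22 with Atm-/- passage (adjusted p = 0.857), in edgeR. The difference of the changes was 2.48 ± 0.32 (adjusted p = 0.000549 in edgeR). Isg15 levels in irradiated Atm+/+ cells overlapped those of Atm-/- cells at passage 8.

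**Figure D4:**
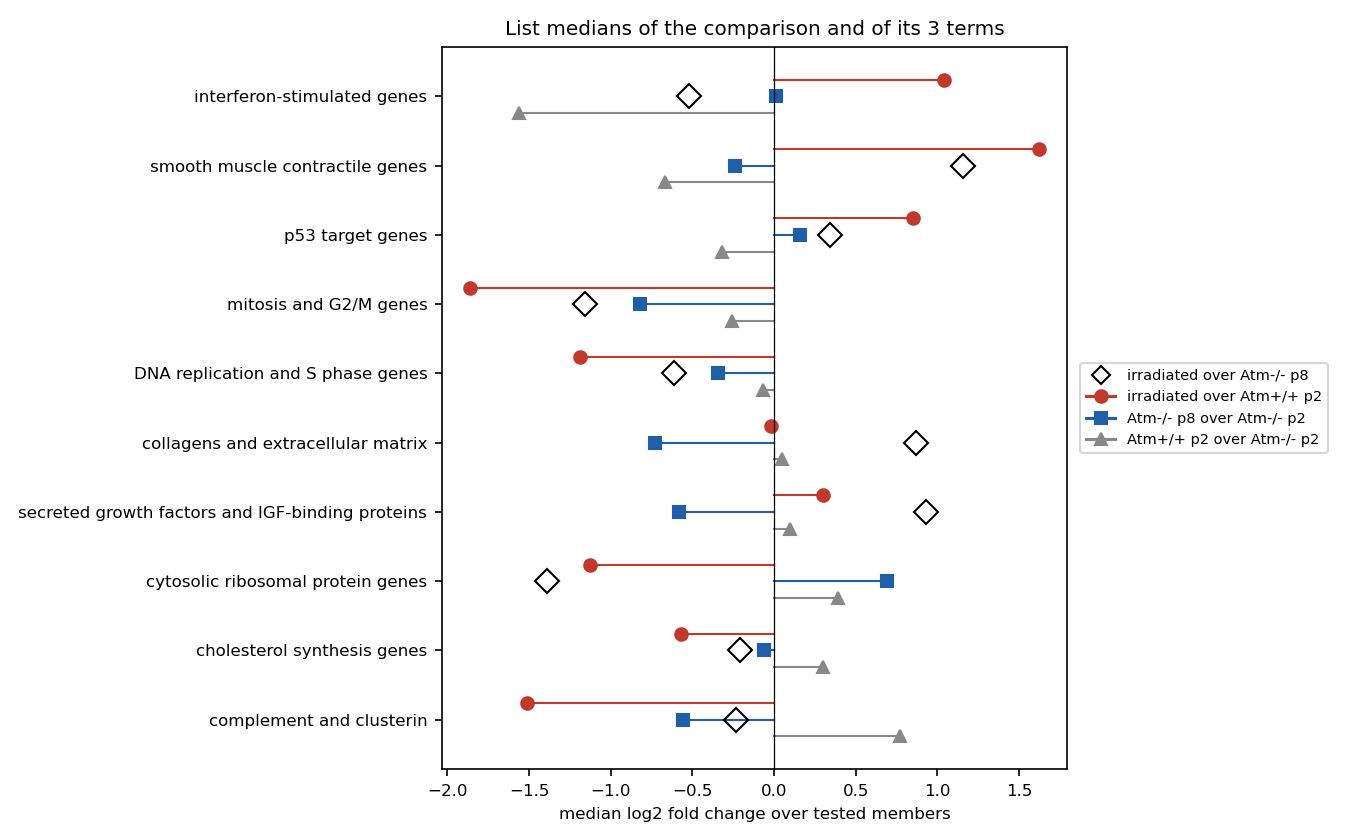
Median log2 fold change over the tested members (horizontal axis) of 10 gene lists (vertical axis), for the level difference (diamonds) and for the 3 fitted terms it is made of; medians of terms need not add up. For interferon-stimulated genes the medians are 1.04 with irradiation, 0.01 with Atm-/- passage and -1.56 for Atm+/+ over Atm-/- cells at passage 2.

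Upstream sensors and antigen presentation gave mixed counts. Of 26 interferon receptor and nucleic acid sensing genes, 5 (19.2%) were higher and 6 (23.1%) lower, beside 10.5% and 14.2% of all genes. Without Atm-/- replicate 3 there were 3 higher. The receptor chains Ifnar1 and Ifnar2 were higher, at 91.4, 87.3 and 90.4 CPM in irradiated cells and 54.5, 73.6 and 48.1 CPM in Atm-/- passage 8 cells for Ifnar1, though the call of Ifnar2 was lost without Atm-/- replicate 3 (adjusted p = 0.0672 in edgeR, against 0.0255 with all libraries) and also without any 1 irradiated replicate, with adjusted p up to 0.131 over all alternatives. The 3 interferon-inducible p200 genes named by the rule, Ifi203, Ifi204 and Ifi205, had log2 fold changes of -1.34, -1.36 and -1.12 and passed in edgeR. All 3 calls were lost in limma on the 3 TPM settings, with -0.68, -0.73 and -0.53 on log2(TPM + 1) and adjusted p up to 0.116, 0.191 and 0.213. These genes belong to a family of close copies, so reads may be split among them. Of 24 MHC class I genes none was higher and 7 (29.2%) were lower. Their median of -0.29 turned to 0.24 on log2(TPM + 1), or -0.21 relative to all genes. B2m, the light chain, was at 664, 716 and 742 CPM in irradiated cells and at 1620, 1540 and 1030 CPM in Atm-/- passage 8 cells (-0.98 ± 0.16, adjusted p = 0.00104 in edgeR), a call lost in limma on all 3 TPM settings (-0.42 on log2(TPM + 1), adjusted p up to 0.289). The heavy chain H2-K1 was at 319, 281 and 329 CPM in irradiated cells and 281, 413 and 310 CPM in Atm-/- passage 8 cells, with overlap.

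Many secreted cytokines were higher in irradiated cells. Of 28 cytokines and chemokines, 14 (50%) were higher and 1 was lower, with a median of 1.13, and without Atm-/- replicate 3 there were 4 lower. Of 10 CXC and CX3C chemokines 5 were higher and none lower. Of 10 IL-6 family, IL-1 and colony-stimulating factor genes 6 were higher and none lower. Yet that group's sum overlapped, at 1930 to 2290 CPM in irradiated and 2010 to 2930 CPM in Atm-/- passage 8 cells. The 8 CC chemokines had a median of -0.28, with 3 higher and 1 lower. The lower gene, named after its values were seen, was Ccl5. Cxcl14, a chemokine of fibroblasts and epithelia, was at 2740, 2940 and 2170 CPM in irradiated cells and at 24.7, 132 and 41.3 CPM in Atm-/- passage 8 cells (5.31 ± 0.51, adjusted p = 2.50e-05 in edgeR). Il6, the cytokine most tied to the senescent secretome, was at 280, 327 and 321 CPM in irradiated cells and at 25, 107 and 37.2 CPM in Atm-/- passage 8 cells (2.45 ± 0.53, adjusted p = 0.00531). Il11, a profibrotic cytokine of the same family, was at 103, 131 and 92.1 CPM in irradiated cells and at 22.8, 15.2 and 15.2 CPM in Atm-/- passage 8 cells. None of these 3 genes overlapped between the groups. Il1a and Il1b had no read in Atm-/- passage 8 cells and 99 and 83 reads over the irradiated libraries, at least 21.7-fold and 18.2-fold higher. Il1b and Ccl12 are also made by macrophages, whose markers summed to 1600 to 2880 CPM in irradiated cells and 44.8 to 65.4 CPM in Atm-/- passage 8 cells, and their part in these counts was not tested.

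Cytokine genes were also compared with their passage 2 levels. With Atm-/- passage 15 of the 28 fell and 2 rose, with a median of -1.71, and with irradiation 5 rose and 6 fell. Over all genes 8.25% fell and 4.76% rose with Atm-/- passage, and 11% rose and 16.5% fell with irradiation. Cxcl14 averaged 1310 ± 237 CPM in untreated Atm+/+ and 1110 ± 77.0 CPM in Atm-/- cells at passage 2 (SD, n = 3 each). It fell by 4.07 ± 0.48 with Atm-/- passage (adjusted p = 8.88e-05 in edgeR), and its change of 1.00 ± 0.43 with irradiation did not pass (adjusted p = 0.0951). Il6 fell by 2.09 ± 0.52 with Atm-/- passage (adjusted p = 0.0166 in edgeR). Its change of 0.73 ± 0.50 with irradiation did not pass (adjusted p = 0.294). Il11 fell by 1.56 ± 0.26 with Atm-/- passage and rose by 1.88 ± 0.26 with irradiation (adjusted p = 0.00113 and 0.000348 in edgeR). In untreated Atm+/+ passage 8 cells Cxcl14 was at 254, 290 and 303 CPM and Il6 at 184, 220 and 239 CPM.

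Growth factors and IGF-binding proteins divided, with more genes higher than lower. Of 29, 13 (44.8%) were higher and 2 lower, with a median of 0.93. Igfbp5, an IGF-binding protein of senescent cells, was at 525, 784 and 488 CPM in irradiated cells and at 57.9, 72.8 and 46.3 CPM in Atm-/- passage 8 cells (3.34 ± 0.26, adjusted p = 5.54e-06 in edgeR). Igfbp6 went the other way, at 50.3, 34.3 and 64.1 CPM in irradiated cells and at 231, 264 and 416 CPM in Atm-/- passage 8 cells (-2.62 ± 0.30, adjusted p = 8.54e-05). Igfbp3 was higher and Igfbp7 overlapped between the groups, so the binding proteins divided. Vegfa, the angiogenic factor, was at 903, 841 and 761 CPM in irradiated cells and at 174, 323 and 229 CPM in Atm-/- passage 8 cells (1.79 ± 0.26, adjusted p = 0.000470). Unlike Igfbp5, which fell by 0.92 ± 0.24 with irradiation and by 4.16 ± 0.27 with Atm-/- passage, Vegfa rose by 2.04 ± 0.26 with irradiation (adjusted p = 0.000233 in edgeR). Untreated Atm+/+ cells averaged 1130 CPM of Igfbp5 at passage 2 and 198 CPM at passage 8. For Vegfa these means were 203 and 654 CPM.

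Proteases and their inhibitors divided by gene. Of 27, 9 (33.3%) were higher and 2 (7.41%) lower, with a median of 0.82, and without Atm-/- replicate 3 there were 12 higher. The largest differences, Mmp9 and Mmp12, are in metalloproteinases made by macrophages, and Mmp12 was at 112, 67.0 and 141 CPM in irradiated cells and at 0.727, 1.28 and 0 CPM in Atm-/- passage 8 cells. Mmp3, a fibroblast metalloproteinase of the senescent secretome, was at 874, 735 and 1030 CPM in irradiated cells and at 307, 663 and 559 CPM in Atm-/- passage 8 cells, which did not pass (0.79 ± 0.27, adjusted p = 0.0511 in edgeR). It passed in 10 of 25 alternatives, among them DESeq2, all 3 TPM settings in limma and the fit of 13 libraries, with log2 fold changes of 0.55 to 1.38 and adjusted p of 0.00188 to 0.152. Timp2, which inhibits metalloproteinases and helps activate pro-MMP2, was lower, at 1550, 1310 and 1650 CPM in irradiated cells and 4950, 3480 and 5770 CPM in Atm-/- passage 8 cells (-1.65 ± 0.24, adjusted p = 0.000465).

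Extracellular matrix genes were higher in irradiated cells. Of 68, 33 (48.5%) were higher and 5 (7.35%) lower, with a median of 0.87, and all 5 lower genes, named after their values were seen, are not fibrillar collagens but Col8a1, Pcolce, Fbln5, Thbs2 and Dpt. Of 8 fibrillar collagens, 7 were higher. Col1a1 was at 7750, 6270 and 6320 CPM in irradiated cells and at 2250, 2860 and 1750 CPM in Atm-/- passage 8 cells (1.57 ± 0.22, adjusted p = 0.000290 in edgeR). Col3a1 was at 7770, 6970 and 7690 CPM in irradiated cells and at 582, 2400 and 1080 CPM in Atm-/- passage 8 cells (2.46 ± 0.42, adjusted p = 0.00124). Both are the main fibrillar collagens of lung, and neither overlapped between the groups. Postn, a matricellular protein of activated fibroblasts that was also on the pericyte list, was at 403, 389 and 282 CPM in irradiated cells and at 17.3, 23.4 and 12 CPM in Atm-/- passage 8 cells (4.34 ± 0.39, adjusted p = 1.48e-05). Loxl2, which crosslinks collagen, and Sparc, which binds it, had fold changes of 1.21 ± 0.13 and 1.17 ± 0.14.

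Matrix genes changed with both irradiation and Atm-/- passage. With Atm-/- passage 30 of the 68 matrix genes fell and 7 rose, and with irradiation 20 rose and 19 fell, with medians of -0.73 and -0.02. Among all genes, 8.25% fell and 4.76% rose with Atm-/- passage, and 11% rose and 16.5% fell with irradiation. Col1a1 fell by 1.88 ± 0.22 with Atm-/- passage (adjusted p = 7.66e-05 in edgeR) and had a log2 fold change of -0.12 ± 0.21 with irradiation (adjusted p = 0.694). Postn rose by 2.32 ± 0.35 with irradiation (adjusted p = 0.000673) and fell by 3.19 ± 0.37 with Atm-/- passage (adjusted p = 7.39e-05), in edgeR.

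Smooth muscle contractile genes were higher in irradiated cells. Of 25, 15 (60%) were higher and none lower, with a median of 1.16, and without Atm-/- replicate 3 there were 18. Acta2, the smooth muscle actin of myofibroblasts, was at 12000, 10800 and 10700 CPM in irradiated cells and at 4260, 5020 and 4920 CPM in Atm-/- passage 8 cells (1.24 ± 0.16, adjusted p = 0.000147 in edgeR). Myh11, the smooth muscle myosin, was at 824, 654 and 650 CPM in irradiated cells and at 112, 199 and 132 CPM in Atm-/- passage 8 cells (2.26 ± 0.23, adjusted p = 3.65e-05). Tagln, an actin-binding protein of the same cells, was higher by 1.40 ± 0.16 and Tpm1, a tropomyosin, by 1.13 ± 0.14. With irradiation 18 of the 25 rose, with a median of 1.62, and with Atm-/- passage 2 fell and none rose, with a median of -0.24. Among all genes, 11% rose with irradiation, and 8.25% fell and 4.76% rose with Atm-/- passage. Acta2 rose by 1.70 ± 0.16 with irradiation (adjusted p = 1.81e-05) and had a change of -0.31 ± 0.15 with Atm-/- passage (adjusted p = 0.205), in edgeR. The difference of the changes was above 0 and passed for 20 of the 25, beside 8.62% of all genes. The starting levels were unequal. At passage 2, 6 of the 25 were lower in Atm+/+ than in Atm-/- cells and none higher, with a median of -0.67. Among all genes, 0.628% were lower there. For Acta2 that starting difference was -0.77 ± 0.15 (adjusted p = 0.0317 in edgeR). Pericytes, which share some of these genes, had marker sums of 1670 to 1910 CPM in irradiated cells and 981 to 1460 CPM in Atm-/- passage 8 cells, and their part in the list was not tested.

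TGF-beta drives both matrix and contractile genes in fibroblasts, and its genes were partly higher. Of 33 TGF-beta pathway and YAP target genes, 13 (39.4%) were higher and 1 was lower, with a median of 0.42, and without Atm-/- replicate 3 11 were higher and 3 lower. The ligand Tgfb3 was at 641, 532 and 499 CPM in irradiated cells and at 139, 219 and 154 CPM in Atm-/- passage 8 cells (1.71 ± 0.18, adjusted p = 3.65e-05 in edgeR). Lrrc32, which tethers latent TGF-beta at the cell surface, was at 1530, 1230 and 1400 CPM in irradiated cells and at 604, 774 and 482 CPM in Atm-/- passage 8 cells. Tgfb1 was higher by 0.76 ± 0.14 (adjusted p = 0.00185 in edgeR) and Tgfb2 did not pass (1.10 ± 0.40, adjusted p = 0.0606), though it did with DESeq2 and in limma on all 3 TPM settings.

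**Figure D5:**
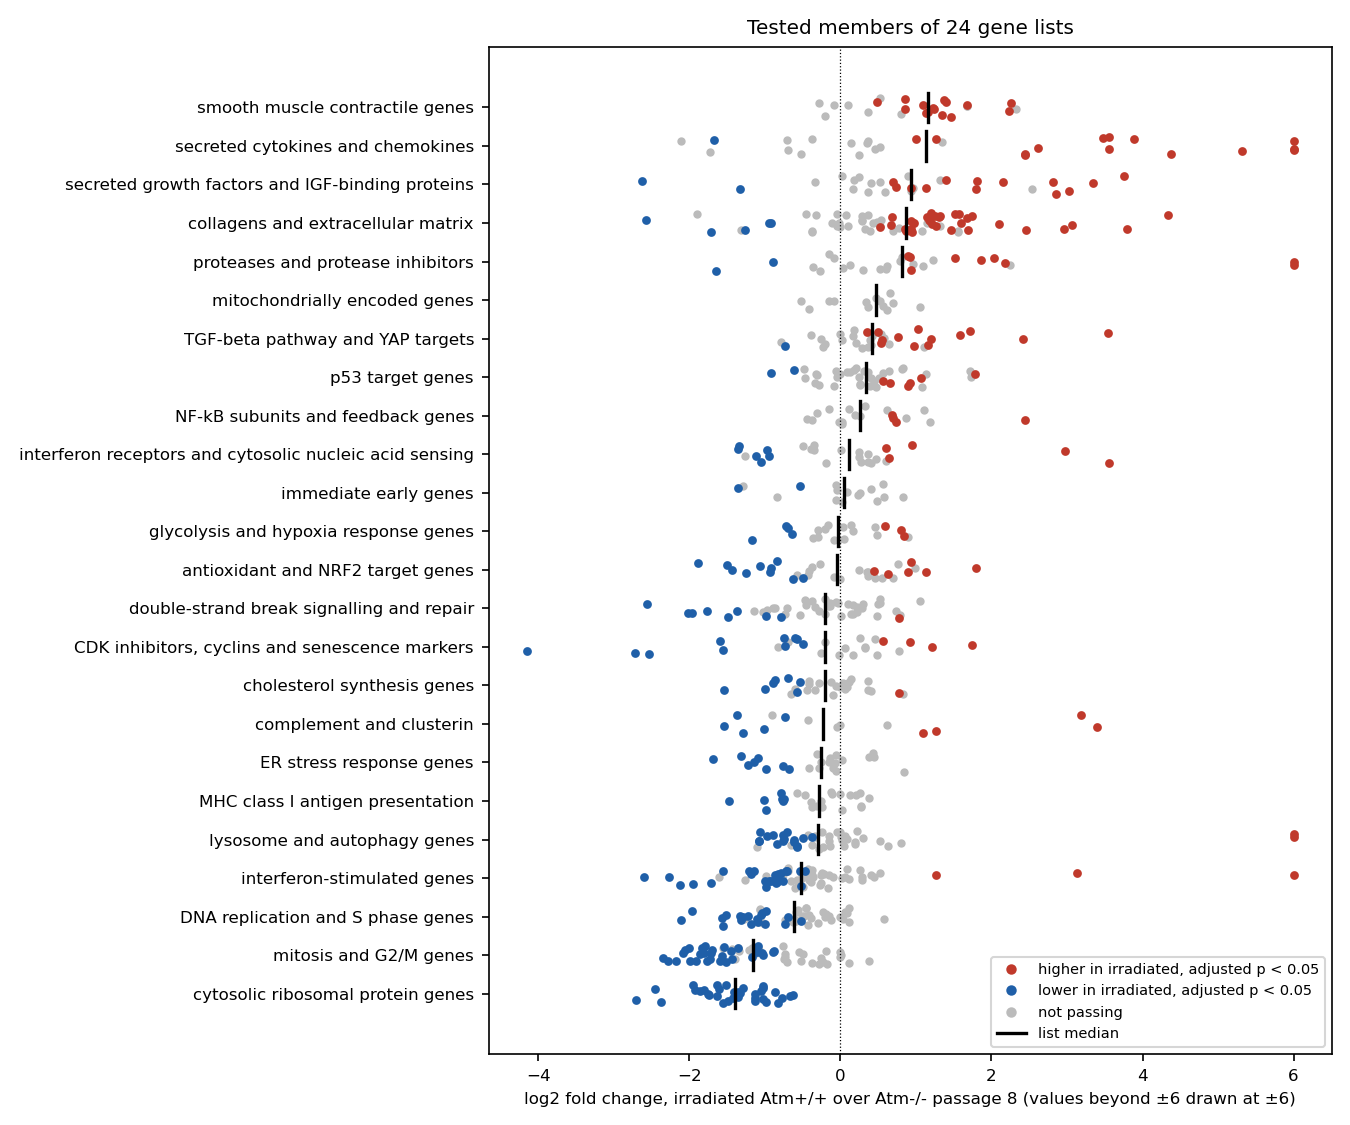
Log2 fold change of irradiated Atm+/+ over Atm-/- passage 8 cells (horizontal axis) of the tested members of 24 gene lists (rows), with the list median as a bar and values beyond 6 drawn at the edge. Smooth muscle genes have a median of 1.16 with 15 of 25 higher, and ribosomal protein genes one of -1.39 with 34 of 34 lower.

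Ribosomal protein genes were lower in irradiated cells. All 34 cytosolic ribosomal protein genes tested were lower in irradiated cells, with a median of -1.39 on counts, and on log2(TPM + 1) 28 were lower with a median of -0.79. Without Atm-/- replicate 3 the number was 28 and the median -0.95. Their sum was 12600 to 13500 CPM in irradiated cells and 24000 to 58100 CPM in Atm-/- passage 8 cells. Rpl23 was at 273, 284 and 269 CPM in irradiated cells and at 723, 636 and 715 CPM in Atm-/- passage 8 cells. These genes are short and have many processed copies in the genome, so their counts are uncertain. Over all genes, the median log2 fold change was -0.16 in the shortest tertile of gene lengths, 0.10 in the middle tertile and 0.23 in the longest tertile, which moves with this list, and its part was not tested.

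Endoplasmic reticulum and lysosome genes were lower in part. Of 23 ER stress genes none was higher and 8 (34.8%) were lower. Their median of -0.26 turned to 0.41 on log2(TPM + 1), or -0.04 relative to all genes. Pdia6, a disulfide isomerase of the ER, was at 308, 303 and 324 CPM in irradiated cells and at 683, 725 and 785 CPM in Atm-/- passage 8 cells (-1.23 ± 0.13, adjusted p = 3.60e-05 in edgeR), and the chaperone Hspa5, BiP, had a fold change of -0.68 ± 0.18, a call lost in 9 of 25 alternatives, the 3 TPM settings among them (adjusted p up to 0.851). Of 44 lysosome and autophagy genes 2 were higher and 16 (36.4%) lower, and without Atm-/- replicate 3 there were 21 lower. Their median of -0.30 turned to 0.28 on log2(TPM + 1), or -0.17 relative to all genes. Gaa, the acid glucosidase, was at 390, 318 and 390 CPM in irradiated cells and at 715, 711 and 726 CPM in Atm-/- passage 8 cells (-0.97 ± 0.15, adjusted p = 0.000776). The 2 that were higher, Ctss and Atp6v0d2, are known from macrophages and osteoclasts, and Ctss was also on the macrophage list.

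Metabolic and signalling lists showed few or divided calls. The shares of all genes were 10.5% higher and 14.2% lower. Of 28 cholesterol synthesis genes 1 was higher and 7 (25%) lower. Their median of -0.21 turned to 0.29 on log2(TPM + 1), or -0.16 relative to all genes. Insig1, which holds back sterol regulation and is itself a sterol target, was at 29.9, 35.0 and 32.6 CPM in irradiated cells and at 112, 70.5 and 101 CPM in Atm-/- passage 8 cells (-1.54 ± 0.16, adjusted p = 3.65e-05 in edgeR). Of 32 antioxidant and NRF2 target genes 6 (18.8%) were higher and 10 (31.2%) lower. Their median of -0.05 turned to 0.48 on log2(TPM + 1), or 0.03 relative to all genes. Sod3, the extracellular superoxide dismutase, was at 2390, 2520 and 2290 CPM in irradiated cells and at 637, 1140 and 304 CPM in Atm-/- passage 8 cells, and Ftl1, ferritin light chain, at 337, 294 and 316 CPM in irradiated cells and 754, 593 and 1340 CPM in Atm-/- passage 8 cells. Of 21 glycolysis genes 3 (14.3%) were higher and 4 (19.0%) lower, near the shares of all genes. Their median of -0.03 turned to 0.50 on log2(TPM + 1), or 0.05 relative to all genes. Of 19 NF-kB genes 4 (21.1%) were higher and none lower. Of 16 immediate early genes none was higher and 2 (12.5%) were lower, near the 14.2% of all genes. None of 13 mitochondrially encoded genes passed in edgeR. Of 14 complement genes 4 (28.6%) were higher and 5 (35.7%) lower. Their median of -0.23 turned to 0.19 on log2(TPM + 1), or -0.26 relative to all genes. The mitochondrially encoded genes summed to 14700 to 15700 CPM in irradiated cells and 4630 to 14900 CPM in Atm-/- passage 8 cells, and the lowest value was that of replicate 3.

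The largest differences downward by the naming rule were in 12 genes of varied kinds. Irx1, a homeobox gene of lung mesenchyme and epithelium, was at 0.516, 0.590 and 0.783 CPM in irradiated cells and at 48.0, 35.1 and 17.1 CPM in Atm-/- passage 8 cells (-5.73 ± 0.74, adjusted p = 0.000178 in edgeR). Prl3a1, a placental prolactin family member, was at 6.87, 5.29 and 6.34 CPM in irradiated cells and at 189, 141 and 271 CPM in Atm-/- passage 8 cells (-5.02 ± 0.38, adjusted p = 5.00e-06). Mlana, a melanosome protein, was at 0.749, 1.25 and 0.699 CPM in irradiated cells and at 36.5, 19.4 and 33.5 CPM in Atm-/- passage 8 cells, while the melanocyte enzymes Dct, Tyr and Tyrp1 were at 0 in all Atm-/- passage 8 libraries. S100a4, a calcium-binding protein of motile fibroblasts, was at 13, 11.1 and 18.3 CPM in irradiated cells and at 265, 130 and 498 CPM in Atm-/- passage 8 cells. The remaining 8 by the naming rule were Msln, Plac9b, Plac9a, Clec3b, C1qtnf3, Elobl, Crct1 and Prl2c2, with fold changes of -5.31 to -4.42. Without Atm-/- replicate 3 the fold change was -3.90 for Plac9b and -3.79 for S100a4. Plac9a and Plac9b are near-identical neighbours whose reads may be split, and Prl2c2 has close copies and lost its call without irradiated replicate 1 or 2 or Atm-/- replicate 1, with adjusted p up to 0.0788 over all alternatives. Prl3a1 rose against passage 2 in both, by 3.45 ± 0.41 with irradiation (adjusted p = 0.000123) and by 5.33 ± 0.39 with Atm-/- passage (adjusted p = 2.77e-06 in edgeR).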

How the data were processed

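The starting point was the authors' deposited table of raw counts, with 48440 genes in 15 RNA-seq libraries of mouse lung fibroblasts (5 groups of 3). Per the submitters' processing notes, featureCounts and SAMtools 1.3.1 were run with the mm10 build. Neither the aligner nor strandedness is stated there, so overlapping and antisense genes could not be told apart. The authors also deposited TPM values for 48082 genes, made from the same reads. Symbols matched 48058 IDs.

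Counts were filtered (filterByExpr by group), TMM-normalised and fitted with edgeR 4.0.16 (quasi-likelihood, robust, a mean per group, R 4.3.3) over all 15 libraries, and p-values were adjusted by Benjamini and Hochberg over 18167 genes with a threshold of 0.05. Adjusted p-values without another tool name are edgeR's. SE is the log2 fold change over the square root of the F statistic, and counting intervals and floors of 3 counts cover counting error only. P-values set a difference against a spread between libraries that was estimated over all 15, so not only over the groups compared. The fits were tested on simulated counts.

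The groups, the 34 lists (24 of genes, 10 of cell type markers) and the tests were chosen with earlier results of these data known, so no list is independent support. Named genes were the 12 largest changes each way passing with and without Atm-/- passage 8 replicate 3, whose groups did not overlap, with an average level of 2 or more (log2 CPM) and no predicted symbol, then for each list the 4 lowest p and the first 3 tested, and Atm. Other genes were named after their values were seen. A few individual genes are left unreported.

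The alternatives tried were a DESeq2 1.42.0 fit, edgeR with size factors from DESeq2, leaving genes unfiltered, a strict filter (1 CPM in 3 libraries, mean count 50), only the groups compared, limma 3.58.1 on log2(TPM + 1) and log2(TPM + 0.1) at 0.5 TPM in 3 libraries, log2(TPM + 1) without a filter, a replicate block, each library left out, and 13 libraries without Atm-/- passage 8 replicate 3 and Atm+/+ passage 2 replicate 3. Promoters were RefSeq windows of GRCm38.p6, the build of mm10, matched by symbol.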

Additional observations from a re-analysis of the deposited data

How the results depend on the processing

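For irradiated against Atm-/- passage 8 cells, 4477 genes were called in edgeR. The count was 1922 in a fit of only those 6 libraries, 7824 without Atm-/- passage 8 replicate 3 and Atm+/+ passage 2 replicate 3, 5832 with DESeq2, and between 2503 and 6067 with 1 library left out. Higher calls were 42.4% of all, 81.0% on log2(TPM + 0.1) and 83.8% on log2(TPM + 1) without a filter, and the cause was not tested. Replicate numbers did not pair irradiated with Atm-/- passage 8 libraries (correlations of deviations -0.048, 0 and -0.007), and the replicate block gave 4204 calls. Within a genotype the numbers may follow strains, since Atm-/- replicate 3 had high Xist at both passages. The Atm-/- passage change was fitted without such pairing. A block joins Atm+/+ and Atm-/- libraries of the same number, so it does not test that pairing. For the difference between the irradiation and Atm-/- passage changes, 3919 genes were called, and 2518 with only its groups, 6044 on log2(TPM + 1), 6043 with the 13 libraries and 1931 to 6360 with 1 left out; the block gave 3776. For Atm+/+ against Atm-/- passage 2, 176 were called, and 863 with DESeq2, 40 with only its groups, 989 with the 13 libraries and 61 to 1787 with 1 left out; the block gave 141. Irradiation against Atm+/+ passage 2 gave 4998, and 8561 with the 13 libraries and 2677 to 8275 with 1 left out; the block gave 4823. Atm-/- passage 8 against passage 2 gave 2362, and 3589 with DESeq2, 868 with only its groups, 5026 with the 13 libraries and 1476 to 3544 with 1 left out; the block gave 2232.

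Of 216 named genes tested, 162 passed, all of them with the same direction under every alternative listed above, and 110 passed under every one that gave a p. Without Atm-/- passage 8 replicate 3, 3 lost their call and 4 gained one. Hmgcs1, a cholesterol synthesis gene at -0.06 on counts, passed the other way at 0.47 on log2(TPM + 1) and 0.49 on log2(TPM + 0.1). Differences of genes under a few CPM in replicate 3, at 13.6 M counts, are limited by its depth.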

Other observations

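Among gene lengths, calls divided as the medians did. In the shortest tertile 337 genes were higher and 1336 lower in irradiated cells, in the middle tertile 717 and 737, and in the longest tertile 844 and 496. On log2(TPM + 1) the medians were 0.28, 0.49 and 0.57. Without Atm-/- passage 8 replicate 3 the medians on counts were -0.21, 0.03 and 0.17.

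Of 14 complement genes, 3 were higher in Atm+/+ than in Atm-/- cells at passage 2 and none lower. Over all genes, 0.341% were higher and 0.628% lower. C3, the central complement protein, was at 191, 135 and 250 CPM in irradiated cells and at 111, 342 and 324 CPM in Atm-/- passage 8 cells, with overlap (-0.43 ± 0.39, adjusted p = 0.435 in edgeR). It averaged 1660 ± 680 CPM in untreated Atm+/+ and 386 ± 77.4 CPM in Atm-/- cells at passage 2 (SD, n = 3 each), a log2 fold change of 2.11 ± 0.40 (adjusted p = 0.0242 in edgeR), and it fell by 3.11 ± 0.42 with irradiation (adjusted p = 0.000291 in edgeR). The inhibitors Cd55 and Cd59a, which protect cells from complement, were higher in irradiated than in Atm-/- passage 8 cells, by 3.18 ± 0.55 and 1.09 ± 0.21.

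Fosl1, a subunit of the AP-1 factor, was at 35.9, 30.5 and 35.4 CPM in irradiated cells and at 89.4, 90.1 and 79.7 CPM in Atm-/- passage 8 cells (-1.35 ± 0.13, adjusted p = 2.59e-05 in edgeR).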
